A study of Mus musculus with 4 samples.

Results

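The genes described here are 10 pattern recognition receptors of innate immunity and their co-receptor in the mouse liver: Tlr1, Tlr2, Tlr4, Tlr6, Tlr7, Tlr8, Cd14, Nlrp3, Nlrp1a and Nod2. They were picked by symbol, as a family, with earlier results of these arrays known, and their probes were found through the transcript that each was written for. All 10 were found, with 19 probes, among 23462 genes named on the arrays. RNA of whole liver was hybridised to 4 Agilent arrays, 1 for each of 4 conditions: Lpiat1 F/F mice on chow (F/F chow), Alb-Cre; Lpiat1F/F mice on chow (LKO chow), and the same genotypes on a high fat diet (F/F HFD and LKO HFD). Lpiat1, now named Mboat7, encodes an acyltransferase that puts arachidonic acid into phosphatidylinositol. All mice were males on a C57BL/6 background and 24 weeks old, and all carried floxed Lpiat1 alleles. The Alb-Cre transgene uses the promoter of albumin, a hepatocyte gene, so that the macrophages, endothelial cells and other cells of the LKO liver keep the gene. The diets were CE2 chow or HFD-60, given for 18 weeks from 6 weeks of age. The labels do not give the number of mice behind each array. With 1 array per condition, no difference between conditions has a replicate check, and no p-value is given.

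Toll-like receptors sit in the plasma membrane or in endosomes and bind conserved parts of microbes or molecules released by damaged cells. Ligand binding recruits adaptors such as MyD88 and leads to NF-kB activation and cytokine transcription. NOD-like receptors lie in the cytosol, where NOD2 senses muramyl dipeptide from bacterial walls, and where NLRP3 and NLRP1A assemble inflammasomes that activate caspase-1. In the liver these receptors are best known on Kupffer cells and on monocytes that enter the tissue, and hepatocytes and other cells also carry some of them.

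Sequences just before a listed transcription start are shown for 4 of the genes. In 3 of them (Tlr1, Tlr2 and Tlr8) the brightest probe was highest in LKO HFD, and in 1 (Nlrp1a) it differed little between arrays. They come from a table of RefSeq promoter windows of build GRCm38.p6 that holds 10 windows for 7 of the 10 genes. Tlr4, Tlr7 and Cd14 are named only. Each window of 250 bases before a start was searched on both strands for the NF-kB motif, for GAGGAA, the core bound by PU.1 and other ETS factors of macrophages, and for TGANTCA, the AP-1 site. Capitals mark a match on either strand, and overlapping matches are written as a single run. Stretches of 30 bases around the match are printed, and for Tlr8 all 250 bases. The genes have further starts upstream in some cases: the Nlrp1a window lies wholly inside the annotated span of its gene, 216 of the 250 bases of the Tlr2 window and 42 of those of the Tlr1 window do so, and none of those of the Tlr8 window.
Tlr2, chr3:83841762-83841791, minus strand: taggacacctGGGGAATTCCCacacggagc
Tlr1, chr5:64933564-64933593, minus strand: aattaaatgttgGAGGAAgtaggagcttga
Nlrp1a, chr11:71144770-71144799, minus strand: tcccagtgttcaGAGGAAgtacatctgccg
Tlr8, chrX:167264330-167264579, minus strand: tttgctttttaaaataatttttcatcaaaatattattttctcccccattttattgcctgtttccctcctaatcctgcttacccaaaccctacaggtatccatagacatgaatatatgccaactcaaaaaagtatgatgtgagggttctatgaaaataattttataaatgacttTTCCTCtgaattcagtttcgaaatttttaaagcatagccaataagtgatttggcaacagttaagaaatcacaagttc

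The NF-kB motif occurred before the start of Tlr2 and in 1 of 2 windows of Nlrp3, and in 3.9% of all 32851 windows in the table. GAGGAA occurred in windows of Tlr1, Tlr8, Nlrp1a and Nlrp3, against 23.3% of all windows, and TGANTCA in none of the 10, against 6.75%. Neither window of Tlr6 and not the window of Nod2 held any of the 3. GAGGAA lay in only 1 of 2 windows each of Tlr1 and Nlrp3. How the motifs relate to the levels was not tested. A match describes these letters and not a bound site.

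The values are intensities of the spot after background subtraction, in arbitrary units. The differences are on the log2 scale after each array was divided by its own 75th percentile, which stood at 222 and 213 on chow (F/F, LKO) and at 263 and 296 on HFD (F/F, LKO), so that the unscaled intensities overstate the levels on HFD arrays. Each of the 19 probes was printed once per array. How far 2 spots of 1 probe differ was therefore read from other probes printed several times: the standard deviation of that log2 difference was 0.46 at intensities of 8 to 20, 0.28 at 20 to 50, 0.20 at 50 to 150, 0.14 at 150 to 500 and 0.07 above 500. This is the error of a spot only, and leaves out the spread between mice. Differences are set below against 2 of these standard deviations, at the dimmer side of the pair. Of the 19 probes, 10 passed the scanner's test for a signal well above background on every array and 5 on none. For 9 of the 10, which stand for 8 genes, the highest scaled level was that of LKO HFD. How often that array was highest over all probes was not counted, so this count has no baseline.

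**Figure D1:**
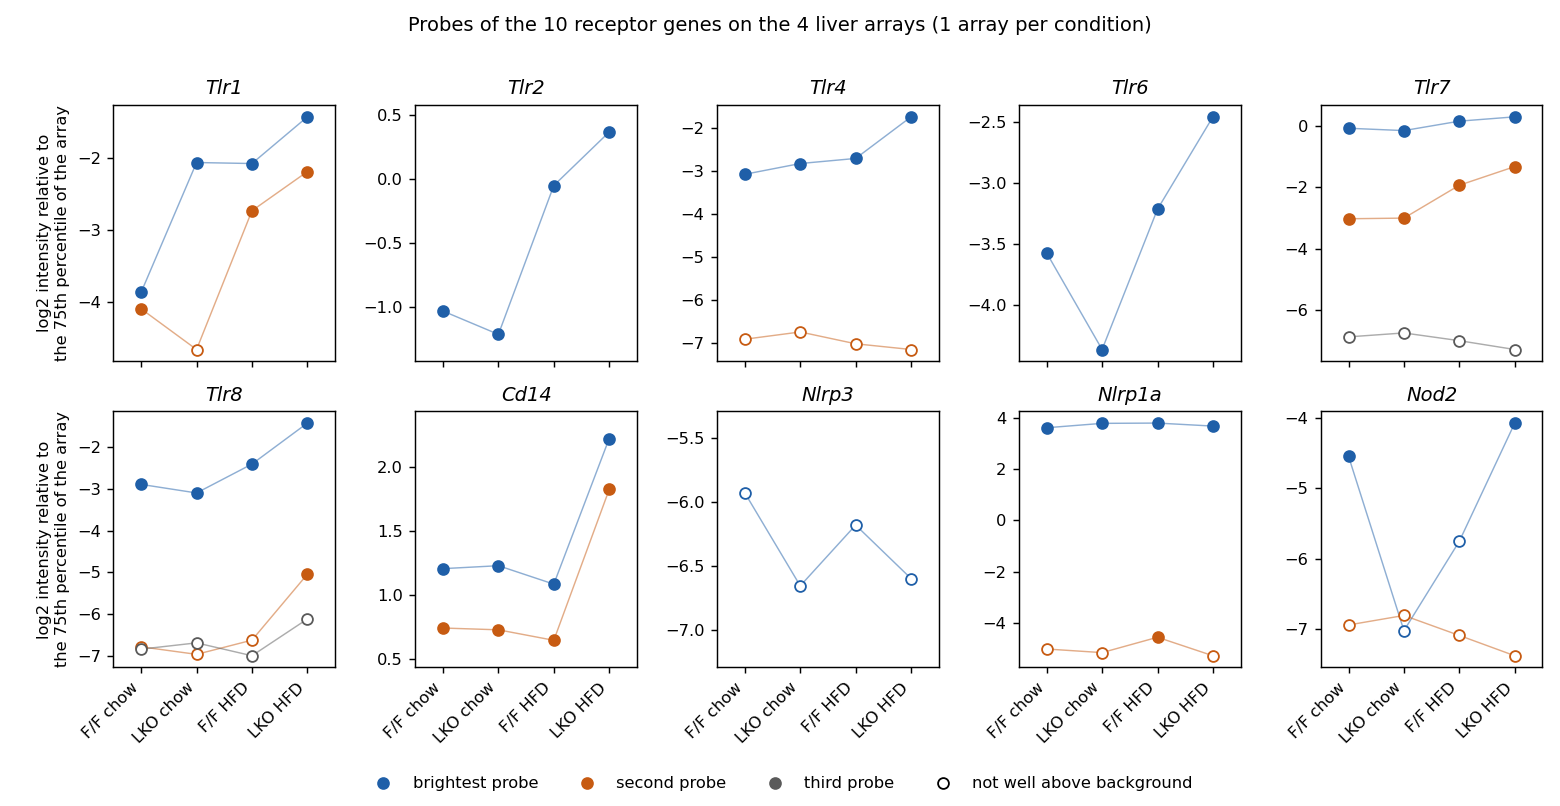
Levels of the 19 probes of the 10 receptor genes on the 4 arrays, as log2 intensity relative to the 75th percentile of the array (vertical axis, scaled separately for each gene). Each point is 1 probe on 1 array, filled where it is well above background and open where it is not, with colours for the brightest, the second and the third probe of a gene. LKO HFD was the highest array for the brightest probes of Tlr1, Tlr2, Tlr4, Tlr6, Tlr7, Tlr8, Cd14 and Nod2. The brighter Nlrp1a probe differed little between arrays, and Nlrp3 stayed at background.

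Tlr1, Tlr2 and Tlr6 form the receptors for bacterial lipopeptides, with TLR2 as the shared partner of TLR1 or TLR6. The Tlr2 probe gave 108 in F/F chow, 91.9 in LKO chow, 254 in F/F HFD and 381 in LKO HFD. Both chow arrays were low and lay within 2 spot standard deviations of each other, F/F HFD was higher than either, and LKO HFD was higher again by 0.42, beyond 2 standard deviations. HFD exceeded chow by 0.98 in F/F and by 1.58 in LKO. Tlr6 was read at 18.6, 10.3, 28.3 and 53.9 in the same order. The 3 lower Tlr6 levels followed each other in steps within the spot error. Their whole span, from LKO chow to F/F HFD, was beyond 2 spot standard deviations. LKO HFD was above F/F HFD by 0.76, a 1.69-fold difference. Within chow, Tlr6 was lower in LKO by 0.79, which at these intensities is within 2 spot standard deviations.

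Tlr1, the neighbour of Tlr6 on chromosome 5 with no gene between them, had 2 probes written for different transcripts. The brighter gave 15.2 in F/F chow, 50.9 in LKO chow, 62.2 in F/F HFD and 109.5 in LKO HFD, so that F/F chow was low on its own and LKO chow matched F/F HFD within the spot error. The second probe gave 12.95 and 8.42 on the chow arrays, the latter not well above background, then 39.5 and 64.6 on F/F HFD and LKO HFD. On HFD both probes were higher in LKO, the brighter by 0.65, beyond 2 spot standard deviations, and the second by 0.54, just within them. On chow they differed: the brighter was higher in LKO by 1.80, or 3.48-fold, beyond 2 spot standard deviations. The second was lower in LKO by a bound of 1.48-fold, which is within 2 spot standard deviations and gives no clear direction. The level of Tlr1 in LKO chow therefore rests on which probe is read.

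Tlr4 encodes the signalling receptor for lipopolysaccharide, and Cd14 the co-receptor that hands lipopolysaccharide to the TLR4 and MD-2 complex. The brighter Tlr4 probe gave 26.3 in F/F chow, 30.2 in LKO chow, 40.4 in F/F HFD and 88.7 in LKO HFD. The first 3 arrays did not differ beyond the spot error between neighbours in that order, and LKO HFD was apart, above F/F HFD by 0.97 or 1.96-fold. The other Tlr4 probe, for the same transcript, was not well above background on any array, with intensities from 1.85 to 2.09.

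Cd14 was the member with the largest difference between genotypes on HFD. Its brighter probe gave 512 in F/F chow, 500.5 in LKO chow, 559 in F/F HFD and 1382 in LKO HFD, and its second gave 371, 354, 412 and 1048. On both probes 3 arrays lay within the spot error of each other and LKO HFD stood alone. LKO exceeded F/F on HFD by 1.14 and 1.18, that is 2.20-fold and 2.26-fold. On chow the same differences were 0.02 and -0.01. The difference of HFD from chow lay within the spot error in F/F, at -0.12 and -0.10, and was 0.99 and 1.10 in LKO.

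Tlr7 and Tlr8, which lie side by side on the X chromosome, encode endosomal receptors for single-stranded RNA. The brightest Tlr8 probe gave 29.8 in F/F chow, 24.9 in LKO chow, 49.5 in F/F HFD and 109.7 in LKO HFD. LKO HFD was above F/F HFD by 0.98 or 1.97-fold, beyond 2 spot standard deviations, and the other 3 followed each other in steps within them. The whole span of those 3, from LKO chow to F/F HFD, was beyond 2 spot standard deviations. A second Tlr8 probe was not well above background on 3 arrays and read 8.95 in LKO HFD, where it was well above background, and the third was at background on all 4. The brightest Tlr7 probe gave 210, 191.5, 292 and 362, with no step between neighbouring levels beyond the spot error. The second probe, for the same transcript, gave 27.3, 26.6, 68.9 and 118, and its steps from the chow arrays to F/F HFD and from there to LKO HFD were both beyond it. On HFD LKO was thus higher by 0.14 on the first Tlr7 probe and by 0.61 on the second. The diet difference in LKO was 0.45 on the first and 1.68 on the second, both beyond 2 spot standard deviations. The third Tlr7 probe, for another transcript, was at background throughout.

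Of Nlrp1a, Nod2 and Nlrp3, the NOD-like receptors, only Nlrp1a was bright. Its brighter probe gave 2710 in F/F chow, 2934 in LKO chow, 3649 in F/F HFD and 3778 in LKO HFD, and after scaling no array differed from its neighbour in level beyond the spot error. LKO minus F/F was -0.12 on HFD and 0.17 on chow, and HFD minus chow in F/F was 0.18. The differences of 0.17 and 0.18, which span more than 1 step between neighbours, exceeded 2 spot standard deviations. The second Nlrp1a probe, written for the same transcript, read between 6.01 and 11.2 and was well above background in F/F HFD alone. There the bound put it 1.61-fold above LKO HFD, which is within 2 spot standard deviations. How the probes of 1 transcript came to read so differently was not tested, and probe sequences were not used here. Nod2 was well above background in F/F chow, at 9.50, and in LKO HFD, at 17.6, and was not in LKO chow, at 1.64, or in F/F HFD, at 4.89. On HFD the bound put it 1.87-fold higher in LKO, or 0.90 on the log2 scale, which is within 2 spot standard deviations at intensities of 8 to 20. The second Nod2 probe was at background on all 4 arrays. The single Nlrp3 probe was not well above background on any array, with intensities from 2.12 to 3.64, and gives no comparison. Tlr4, Tlr6, Nlrp1a and Nod2 are also among transcripts that the study picked from these same arrays, so that their values are not independent evidence of a direction.

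**Figure D2:**
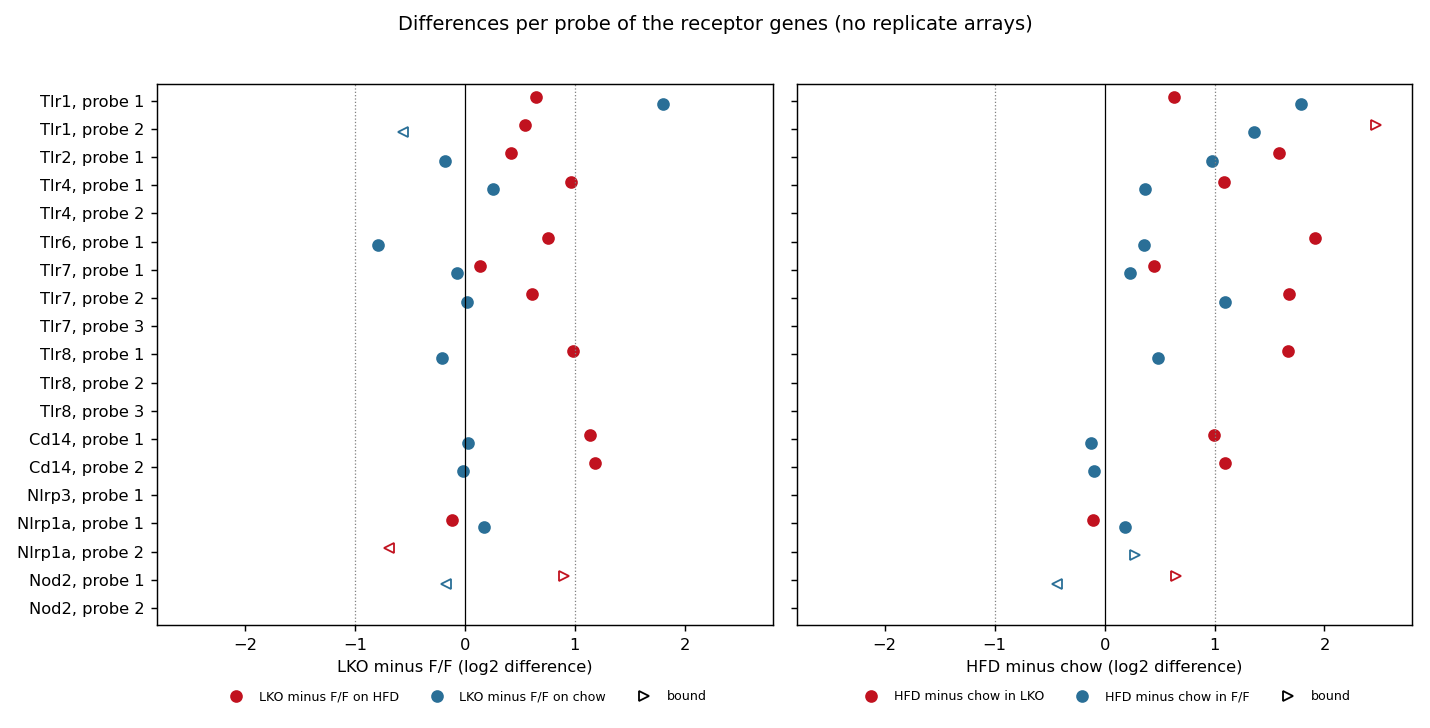
Log2 differences of each probe between genotypes (left, LKO minus F/F, with HFD in red and chow in blue) and between diets (right, HFD minus chow, with LKO in red and F/F in blue). Filled circles are measured on both arrays, open triangles are bounds that point away from 0, and probes without a mark were not well above background or did not exceed the bound. Dotted lines mark 2-fold. On HFD both Cd14 probes lie past 2-fold, and Tlr4 and Tlr8 lie just below it.

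Taking the brightest probe of each gene, 8 of the 10 members were measured on both arrays for LKO against F/F on HFD. Nlrp3 had no value, and Nod2 had a bound through LKO HFD alone, whose sign the filter fixes, so that it is left out of the counts. Of the 8, 7 were higher in LKO and 1, Nlrp1a, was lower, with a median of 0.70. Over the 14677 genes measured on both arrays, 44.6% were higher and the median was -0.04. Only Cd14 reached a 2-fold difference, 1 of 8 members, where 1.85% of all genes were at least 2-fold higher. At 1.5-fold the count was 5 of 8, against 7.04% of all genes. Tlr1, Tlr4, Tlr6 and Tlr8, the 4 of the 8 with a mean intensity below 150, were among the 5, and of the 5260 genes below that intensity 12.5% were at least 1.5-fold higher in LKO. On chow the 8 measured members were split, 4 higher and 4 lower in LKO, with a median of -0.03, where 51.6% of all genes were higher. Tlr1 alone was at least 2-fold higher, 1 of 8, against 0.585% of all genes. That call was lost with the normexp correction, at 0.54, and with the mean of the probes, at 0.62, and the sign turned at the dimmer probe, at -0.56. The signs of Tlr7 and Cd14 on chow, both near 0, also depended on the probe or the scaling.

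The contrast between diets shares its arrays with that between genotypes, so the values are given side by side, again for the 8 measured members. In F/F, 7 of 8 were higher on HFD, against 46.9% of all genes, with a median of 0.36 against -0.03. Tlr1 alone was at least 2-fold higher, where 4.36% of all genes were. Tlr2 was just below, at 1.97-fold. With the normexp correction Tlr1 was at 0.47 and Tlr4 at -0.06 in F/F, and with the table deposited by the study Cd14 was at 0.01. In LKO, 7 of 8 were higher on HFD, against 41.0% of all genes, with a median of 1.04 against -0.09. At least 2-fold higher were 4 of 8 (Tlr2, Tlr4, Tlr6 and Tlr8), where 7.07% of all genes were. At 1.5-fold these were 6 of 8, against 13.6%. With the normexp correction 3 of those 4 calls were lost, with Tlr4 at 0.37, Tlr6 at 0.33 and Tlr8 at 0.67, while Tlr2 stayed past 2-fold at 1.03. Nlrp1a was the exception in LKO at -0.11, with a sign that changed under other scalings.

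**Figure D3:**
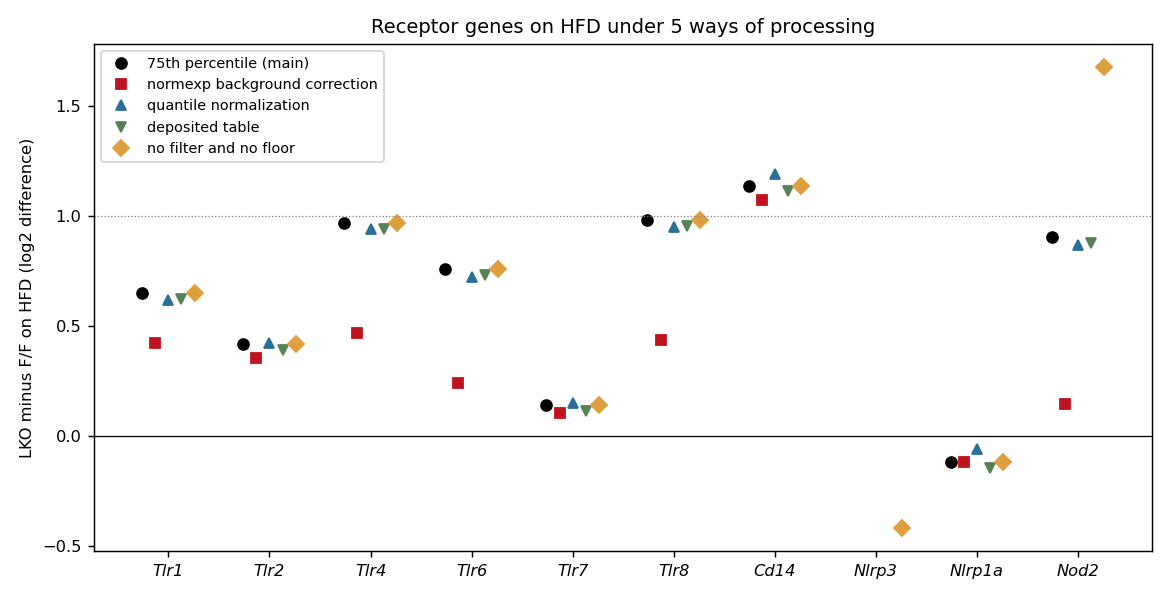
LKO minus F/F on HFD (log2 difference, vertical axis) for the brightest probe of each receptor gene under 5 ways of processing the same arrays. The black circles are the values of the text, and the dotted line marks 2-fold. Under the normexp correction Tlr4 falls to 0.47, Tlr6 to 0.24, Tlr8 to 0.44 and Nod2 to 0.14, all still above 0, while Cd14 stays at 1.07.

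For the dim members the size of the difference depended on how background was removed. The normexp correction with an offset of 50 pulls low intensities together, and it brought Tlr4 on HFD from 0.97 to 0.47, Tlr6 from 0.76 to 0.24, Tlr8 from 0.98 to 0.44 and Nod2 from 0.90 to 0.14. Bright Cd14 stayed between 1.07 and 1.19 in all 8 alternatives. No member with a value changed sign on HFD in any of the 8.

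The partners of these receptors, taken from 4 lists of 64 further genes, did not move as a block. Counts of these lists include bounds. Over all 15528 genes with a value for LKO against F/F on HFD, 45.9% were higher in LKO and the median was -0.03. Of 23 other Toll-like, NOD-like and related receptors, 20 had a value for LKO against F/F on HFD, with 10 higher and 10 lower and a median of -0.02. Tlr9, the endosomal receptor for CpG DNA, was lower in LKO by 0.42, at 4736 in F/F HFD and 3987 in LKO HFD, and Tlr3, the receptor for double-stranded RNA, by 0.16 at intensities near 15. Naip1, a cytosolic sensor of bacterial secretion proteins, was at least 2.32-fold higher in LKO on HFD. This is a bound, as Naip1 was not well above background in F/F HFD, so that the filter fixes its sign. No other gene of the 4 lists was past 2-fold there. That is 1 of 60 genes with a value, where 2.36% of all genes were at least 2-fold higher. The 9 accessory proteins had a median of 0.01. Ly96, which encodes MD-2, the partner of TLR4, gave 559, 657, 862 and 978 on the 4 arrays, and LKO minus F/F was 0.01 on HFD. Thus on HFD the RNA of Cd14 and Tlr4 read higher in LKO and that of Ly96 level. The Tlr4 value rests on its brighter probe alone, and the protein complex was not measured.

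The 21 adaptors and kinases with a value had a median of 0.08 on HFD, 15 higher and 6 lower, with none past 2-fold. The share of all genes with a value that were higher was 45.9%. Myd88, the adaptor of most Toll-like receptors, was higher in LKO by 0.15 on either diet, and lower on HFD than on chow by 0.73 in both genotypes. Ripk2, the kinase that signals for NOD2, read 55.4 in F/F chow and 11.9, 14.6 and 18.4 on the other arrays, which put it 2.17 lower in LKO on chow and 0.16 higher on HFD. All 10 inflammasome effectors had a value on HFD, 8 higher in LKO, with a median of 0.26 and none past 2-fold. Among the 8 is a bound of 0.03 whose sign the filter fixes. Pycard, the adaptor ASC, was higher by 0.46, Casp1 by 0.45, and Il1b, the cytokine that caspase-1 matures, by 0.33.

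**Figure D4:**
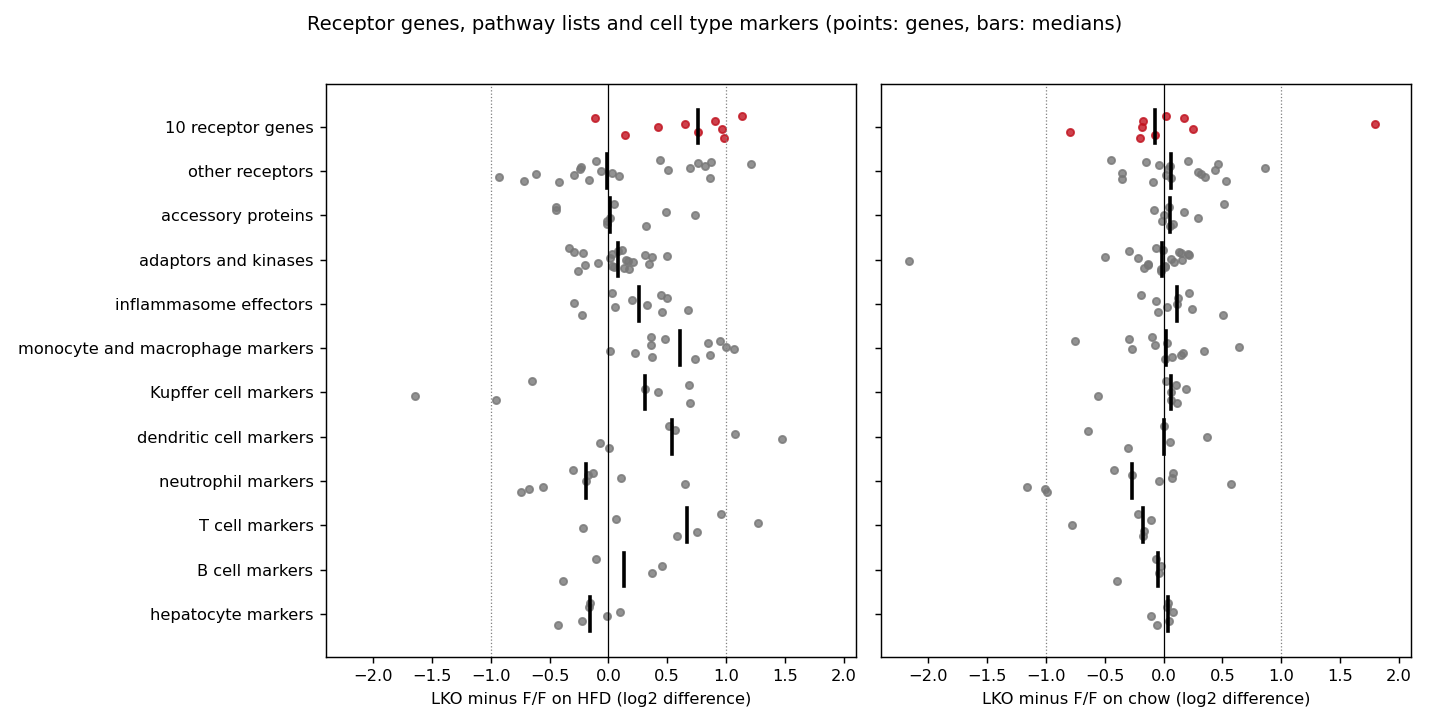
LKO minus F/F on HFD (left) and on chow (right) as log2 differences for the receptor genes (red), the 4 lists of their pathway and markers of 7 cell types (grey). Each point is a gene with a value, bars are list medians, and dotted lines mark 2-fold. On HFD the medians, bounds included, were 0.76 for the receptor genes, 0.61 for monocyte and macrophage markers and between -0.02 and 0.26 for the pathway lists. On chow the same medians were -0.08, 0.02 and between -0.01 and 0.11.

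Markers of leukocytes, which carry many of these receptors, differed between the arrays along with them. In whole liver, more cells of a type and more RNA per cell cannot be told apart. All 12 markers of monocytes and macrophages were higher in LKO on HFD, with a median of 0.61, where 45.9% of all genes with a value were higher. The summed level of the 12 markers, in units of the 75th percentile of the array, was 50.4 in F/F chow, 49.4 in LKO chow, 73.2 in F/F HFD and 102.8 in LKO HFD. The brightest probes of Tlr2, Tlr4, Tlr6, Tlr7 and Tlr8 also had LKO HFD highest and F/F HFD next. For all of these but Tlr2 the step up to F/F HFD from the next lower array was within the spot error. The brightest probes of Tlr1, Cd14, Nlrp1a and Nod2 did not have that order. For Tlr1 this rests on LKO chow and F/F HFD, which were level within the spot error, and its second probe did have that order. On HFD the 12 monocyte and macrophage markers ranged from 0.01 for Itgam to 1.06 for Fcgr1, the high-affinity receptor for IgG. The others named here were picked after their values were seen. Cd68, a lysosomal protein of macrophages, was higher in LKO by 0.84. Ccr2, the chemokine receptor of recruited monocytes, was higher by 0.95, and Ly6c2 by 0.22. The 7 Kupffer cell markers were split, 4 higher and 3 lower, with Vsig4 at 0.69 and the scavenger receptor Marco at -1.64. Dendritic cell markers had a median of 0.54, T cell markers 0.67 and B cell markers 0.13, while those of neutrophils were at -0.19 and of hepatocytes at -0.16. The HFD diet in F/F likewise came with 12 of 12 monocyte and macrophage markers higher, median 0.62, against 47.8% of all genes. In LKO it came with 12 of 12, median 1.29, against 43.5%. On chow 7 of 12 were higher in LKO, median 0.02, against 50.7% of all genes. In both of these counts Ccr2 is a bound whose sign the filter fixes, as it was not well above background in LKO chow. The part of these cells in the receptor values was not tested.

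Markers of other tissues also differed between the HFD arrays. All 10 markers of exocrine pancreas were higher in LKO HFD than in F/F HFD, with a median of 1.82, and LKO HFD stood apart with a summed level of 49.5 against 13.4 to 25.1 on the other arrays. The 6 red cell markers with a value were lower in LKO HFD than in F/F HFD, with a median of -0.97, and here F/F HFD stood apart, with a summed level of 347 against 173 to 175.5. Their part in the receptor values was not tested. Mboat7, the targeted gene, gave 1102 in F/F chow, 861 in LKO chow, 1181 in F/F HFD and 1100 in LKO HFD, lower in LKO by 0.30 on chow and 0.27 on HFD. Where its single probe lies relative to the deleted exons was not examined, so that it is no full check of the labels.

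The 8 members measured on all arrays were each centred on their own mean in log2. Their median profile was -0.33 in F/F chow, -0.22 in LKO chow, 0.09 in F/F HFD and 0.85 in LKO HFD. Tlr4 lay nearest to it, at a root mean square distance of 0.13, and Tlr1 farthest, at 0.65. Over 13973 genes measured on the 4 arrays the median distance was 0.53, and the 5 nearest were Serpinb6a at 0.10, Plcb2 at 0.10, Abhd10 at 0.10, Pvt1 at 0.10 and Hsd17b13 at 0.10. Hsd17b13, a lipid droplet enzyme of hepatocytes, read 5518, 5682, 9092 and 16330. With 4 arrays such likeness describes those arrays only.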

How the data were processed

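Total RNA of liver was labelled with Cy3 and hybridised to SurePrint G3 mouse 8x60K arrays. The intensity of each spot was deposited by the authors as Agilent Feature Extraction 12.0.3.1 gave it, background-subtracted, with a flag for signals well above background. A second deposited table holds the same intensity times 1 factor per array, from 2.10 to 2.63, and column medians from 33.2 to 36.1. The sources used here do not say how that factor was derived.

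From the deposited intensity, log2 minus the 75th percentile over the 59305 spots that are not controls was computed for each array (Python 3.11.15, pandas 2.3.3, numpy 2.4.6). The percentile suits arrays where most genes are alike, and would hide a shift of all genes. Outlier spots were dropped and none was saturated. From 53.0% to 57.0% of spots were well above background. Of 56605 probes, 33767 (59.7%) were named through RefSeq accessions of GRCm38.p6. Since the arrays are annotated on another build, no gene coordinates are given. The brightest probe stood for a gene, and each probe of the members is reported. Where 1 array was not well above background, the difference is a bound, taken against the lowest signal well above background (7.80 to 8.35) or the probe's own signal where higher.

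All 4 arrays were on 1 slide in 1 scan, so that neither separates the groups. There being no replicate arrays, nothing was tested, and only fold thresholds were counted. The members and lists were chosen with earlier results of these data known. Named beyond the members were genes of the 4 pathway lists at least 2-fold different between genotypes, Myd88, Ly96, Tlr3, Tlr9, Pycard, Casp1 and Il1b, the 5 genes nearest to the profile, and Mboat7, while the cell markers named were chosen after their values were seen. Normexp and quantile normalization were run in limma 3.58.1 (R 4.3.3).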

Additional observations from a re-analysis of the deposited data

Results flagged for a closer look

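Some members had opposite signs on the 2 diets or in the 2 genotypes. With 1 array per condition these differences were not tested, and several are within the spot error. LKO minus F/F on HFD against the same on chow was 0.76 against -0.79 for Tlr6, 0.42 against -0.18 for Tlr2, 0.14 against -0.08 for the brightest probe of Tlr7, 0.98 against -0.20 for Tlr8 and 1.18 against -0.01 for the second probe of Cd14. For the second probe of Tlr1 it was 0.54 against a bound of -0.56, and for Nod2 both were bounds, 0.90 against -0.18. Nlrp1a ran the other way, at -0.12 on HFD and 0.17 on chow. HFD minus chow in LKO against the same in F/F was 0.99 against -0.12 and 1.10 against -0.10 for the probes of Cd14. It was -0.11 against 0.18 for Nlrp1a, and for Nod2 both were bounds, 0.65 against -0.43.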

How the results depend on the processing

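No paired analysis was possible because each condition has 1 array. Counts and medians here include the bound of Nod2. Of 285 values of single members under alternatives, 9 had the opposite sign, none of them for genotype on HFD. Tlr1 on chow reversed, to -0.56 at its dimmest probe, and the other 8 were at most 0.06 in size, for Cd14 and Tlr7 on chow, Cd14 and Tlr4 for diet in F/F and Nlrp1a for diet in LKO. Members at least 2-fold different between genotypes on HFD, 1 with the main settings, were 6 at 1.5-fold, 0 at 4-fold, 3 with the percentile over probes well above background and 2 with neither filter nor floor. With normexp the median over all members with a value was 0.35 in place of 0.76. Between genotypes on chow the count, also 1, was 2 at 1.5-fold and with neither filter nor floor, where Nod2 went from a bound of -0.18 to -2.48, and 0 at 4-fold, with normexp, with the mean of probes and with the dimmest probe, whose median was -0.18. For diet in F/F the count of 1 became 2 at 1.5-fold, with the percentile over probes well above background, with the deposited table, with neither filter nor floor and with the dimmest probe, and 0 at 4-fold and with normexp. The median was 0.16 with normexp and 0.49 with the deposited table. For diet in LKO the count of 4 became 7 at 1.5-fold and with the mean of probes, 2 with normexp and 0 at 4-fold, and the median became 0.36 with normexp, 1.14 with the deposited table and 1.34 with the dimmest probe. The deposited table moved the median of all genes to 0.11 for diet in F/F. With neither filter nor floor that median lay at -0.12 for genotype on HFD, -0.12 for diet in F/F and -0.21 for diet in LKO, as dim genes enter. Signals near background limit Nod2, Nlrp3 and the second probes of Tlr4 and Nlrp1a.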

Other observations

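The genes in this paragraph are related receptors and partners outside the 10 genes, chosen after their values were seen. Tlr12, an endosomal receptor for profilin, gave 830 in F/F chow, 1020 in LKO chow, 3702 in F/F HFD and 2188 in LKO HFD, which was 0.93 lower in LKO on HFD although HFD exceeded chow by 1.91 in F/F. Tlr5, the flagellin receptor, gave 99.6, 138.5, 241 and 165, and was lower in LKO by 0.72 on HFD and higher by 0.53 on chow. Tlr13, an endosomal receptor for bacterial ribosomal RNA, gave 189, 190.1, 326 and 665, with LKO higher by 0.86 on HFD. Ly86, which encodes MD-1, the partner of CD180, gave 845, 813, 1540 and 2881, with LKO higher by 0.74 on HFD, while Cd180 itself differed by -0.11.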
